A study of Triticum polonicum with 8 samples.

Results

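This account describes 69 genes of dwarf Polish wheat roots, of 124856 in the count table, that were read at a high level in one library alone, that of roots grown at basal calcium and potassium with cadmium and zinc together (N0_Cd_Zn). A gene was a member where it had at least 5 CPM (reads per 1000000 counted reads of the library) in N0_Cd_Zn and where that level was at least 8 times the highest CPM of the other 7 libraries plus 0.1. The members were thus chosen by the measured values of all 8 libraries, and their height in N0_Cd_Zn is a description with no test. The question named by the series title is how calcium and potassium bear on the interaction of cadmium and zinc in seedlings.

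Every library came from roots of the same cultivar, labelled as 4 weeks old. N0_Cd_Zn had 80 µM CdCl2 and 500 µM ZnSO4 with 4 mM calcium nitrate and 5 mM potassium nitrate. N2_Cd_Zn had the same metals with 8 mM calcium nitrate and 10 mM potassium nitrate. N2_Cd and N0_Cd had 80 µM CdCl2 alone at the raised and basal supply, and N2_Zn and N0_Zn had 500 µM Zn alone. N2 and N0 had neither metal added. The solution without the zinc treatment held 5 µM zinc. Both salts are nitrates, so nitrate was 26 mM in N2 solutions and 13 mM in N0 solutions, and Ca, K and nitrate cannot be told apart. The labels speak of 3 biological replicates per treatment, but the table holds 1 column for each, so no difference below has a replicate check. Library totals lay between 20000875 and 25241789 counts. In whole roots, fewer cells of a type and less RNA per cell cannot be told apart. The root label was not checked against marker genes, because the identifiers are not paired with gene names.

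Zinc is an essential micronutrient that enzymes and zinc finger proteins bind, whereas cadmium has no known nutritional role in plants and is toxic. The ions are chemically alike and compete for some of the same uptake carriers of root cells, such as members of the ZIP family, and cadmium can also enter through calcium-permeable channels. Dwarf Polish wheat is a tetraploid with an A and a B subgenome, and its genes often occur as near-identical copies on the matching A and B chromosomes. The identifiers with an arm code follow gene models of bread wheat, which has a D subgenome as well. No role can be given to any member, and each is identified here by its chromosome arm code and scaffold. Reads shared between near-identical copies make the value of any single gene uncertain to that extent.

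N0_Cd_Zn and N2_Cd held more such genes than the other libraries under the same rule. Applied to each library in turn, the rule found 69 genes in N0_Cd_Zn, which is 0.232% of the 29740 genes at 5 CPM or more there. It found 119 genes in N2_Cd (0.399% of the genes at 5 CPM or more in that library) and 39 in N2 (0.124%). The other counts were 7 in N2_Cd_Zn (0.0236%), 7 in N2_Zn (0.0242%), 5 in N0_Cd (0.017%), 4 in N0 (0.014%) and 0 in N0_Zn. No read in any of the other 7 libraries was found for 1 of the 69 N0_Cd_Zn genes, against 37 of 119 genes for N2_Cd, 2 of 39 for N2 and 0 for each of the other libraries.

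The members held 69507 counts in N0_Cd_Zn, or 0.323% of that library. In the other libraries with metal they held 280 counts in N2_Cd_Zn, 242 in N2_Cd, 322 in N0_Cd, 312 in N2_Zn and 193 in N0_Zn. In the libraries without metal they held 4197 counts in N2 and 2806 in N0. Scaled to library size, the sum was 3230 CPM in N0_Cd_Zn and lay between 7.65 and 14.3 CPM in the other 5 metal libraries. It was 168 CPM in N2 and 116 CPM in N0, so the libraries without metal stood between the others. A pair of highly expressed genes made up 42.1% of the N0_Cd_Zn sum. Without them the order was kept, with 1870 CPM in N0_Cd_Zn, between 6.46 and 12.3 CPM in the other metal libraries, 94.7 CPM in N2 and 44.3 CPM in N0.

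**Figure D1:**
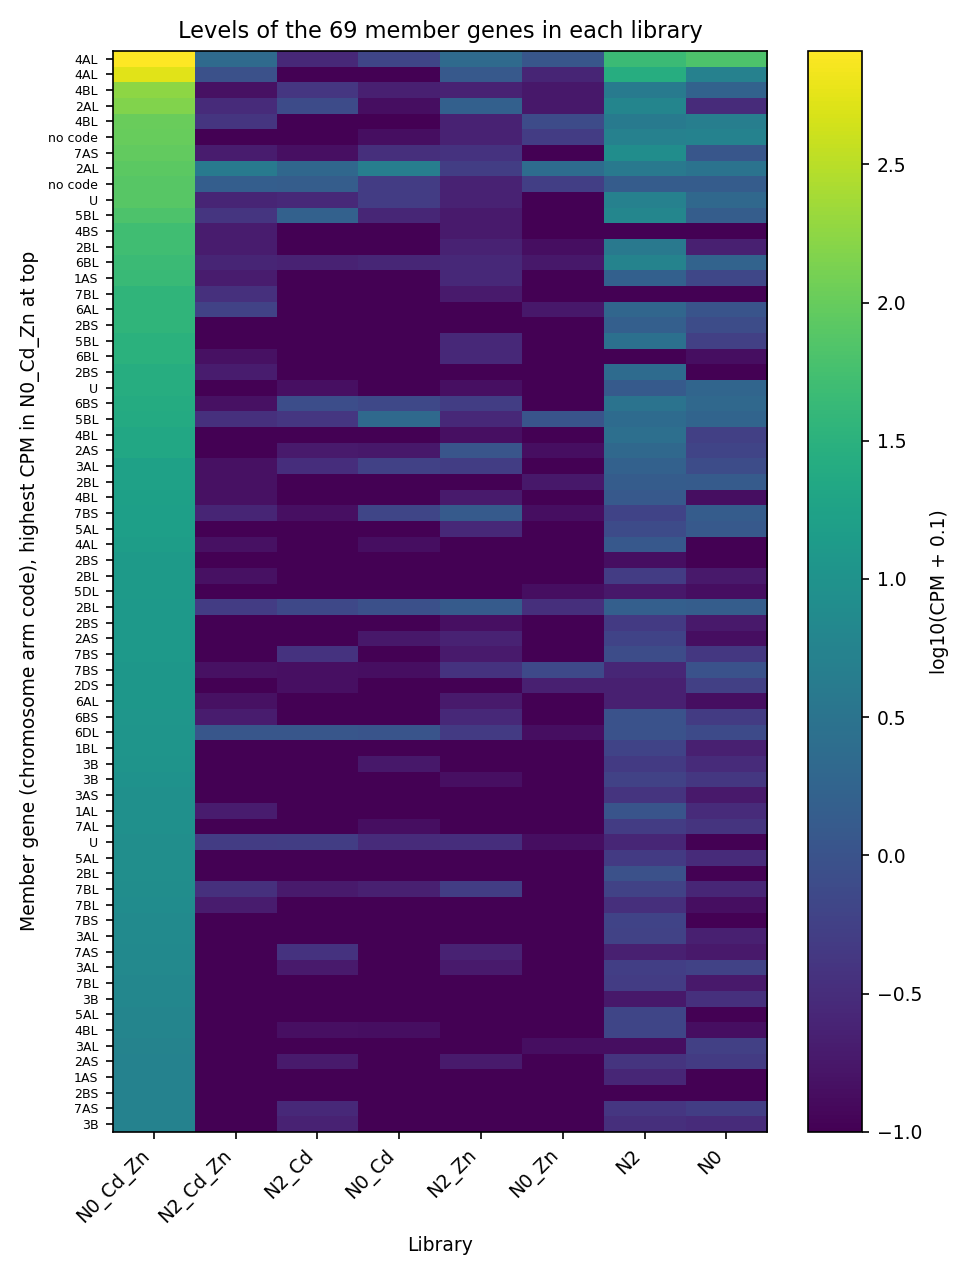
Heat map of log10(CPM + 0.1) for the 69 member genes (rows, labelled by chromosome arm code and ordered by CPM in N0_Cd_Zn) in the 8 libraries (columns). N0_Cd_Zn is high by the choice of genes; among the others, N2 and N0 hold most of the remaining signal, while the other 5 metal libraries are near the dark end for most genes.

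Levels of single members spread widely. In N0_Cd_Zn they ran from 5.25 CPM through a median of 13.2 CPM to 815 CPM, with 26 members at 20 CPM or more and 6 at 100 CPM or more. The smallest member count was 113, so every member rests on over 100 reads in N0_Cd_Zn. Per length, the median member had 11.5 FPKM (fragments scaled to both gene length and library total) in N0_Cd_Zn, within a range from 2.04 to 465, against a median of 7.88 FPKM over all genes at 5 CPM or more there. The ratio to the highest other library plus 0.1 ran from 8.02 through a median of 14.8 to 256, with 32 members at 16 times or more.

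The medians outside N0_Cd_Zn were near the detection limit in the metal libraries. The median member had 0.05 CPM in N2_Cd_Zn, 0 in N2_Cd, 0 in N0_Cd, 0.0916 in N2_Zn and 0 in N0_Zn, against 0.562 CPM in N2 and 0.331 CPM in N0. No read was found for 34 members in N2_Cd_Zn, 41 in N2_Cd, 44 in N0_Cd, 28 in N2_Zn and 47 in N0_Zn, against 4 in N2 and 11 in N0. Of all 29740 genes at 5 CPM or more in N0_Cd_Zn, between 0.538% and 1.02% had no read in one of these metal libraries, 0.0403% in N2 and 0.0538% in N0. These shares are not on a like footing, since the rule itself asks for low levels outside N0_Cd_Zn. A count of 0 allows a level of up to 3 counts, or 0.119 to 0.150 CPM depending on the library, and this covers counting error only. For 13 members no read was found in any of the other 5 metal libraries. Over the 29740 genes that share can be at most 0.538%, the lowest share without a read in a single metal library. This too is no like comparison, since the rule asks for low levels there. Read together, most members were detectable without metal at a low level and hardly detectable under Cd, Zn or raised-supply Cd with Zn.

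**Figure D2:**
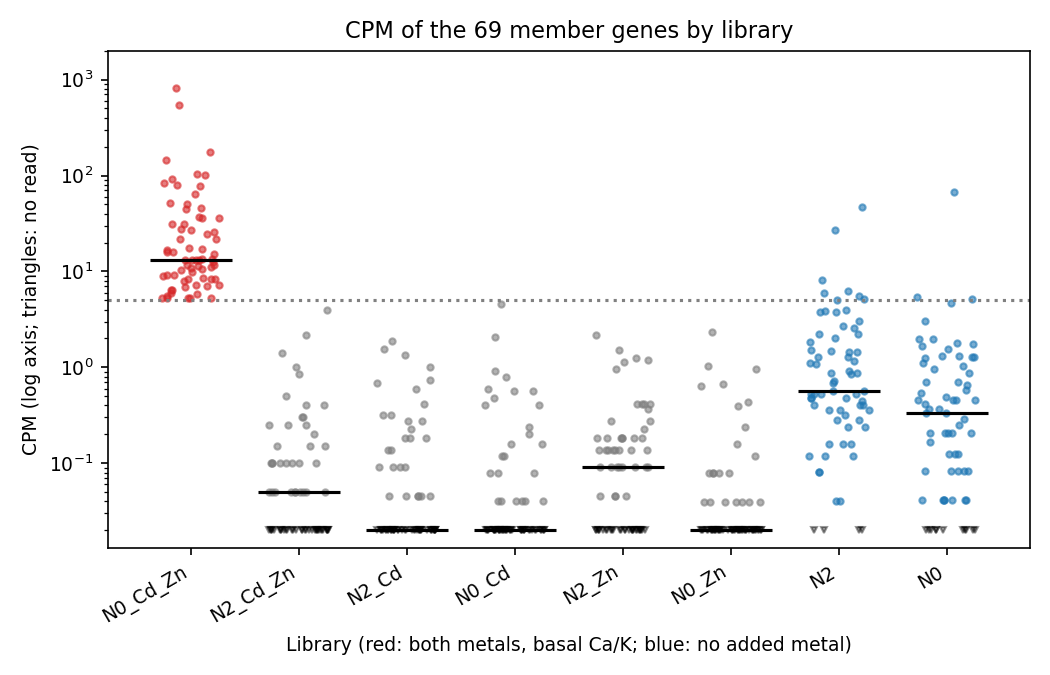
CPM of each of the 69 member genes (points, log axis) in the 8 libraries, with the median as a black bar and genes without a read as triangles at the bottom; the dotted line marks 5 CPM. The medians are 13.2 in N0_Cd_Zn, at most 0.0916 in the other metal libraries, 0.562 in N2 and 0.331 in N0.

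The order of the other 7 libraries was not fixed by the rule, which read the highest of them alone, and this order placed the libraries without metal next. The highest of the other 7 was N2 for 47 members and N0 for 13, or 60 of 69 in all (87.0%). Among all 29740 genes at 5 CPM or more in N0_Cd_Zn, the highest of the other 7 was N2 or N0 for 44.2%. Both N2 and N0 lay above all 5 other metal libraries, without overlap, for 40 of 69 members, against 11.1% of those 29740 genes. Both lay below all 5 for 0 of 69 members, against 2.47% of the other genes at that level. A gene that lacks reads in a metal library cannot have N2 and N0 below it. Between 28 and 47 members had no read in each of those libraries, so this 0 was largely fixed and is no contrast. The members' low counts in these 7 libraries differ from those of the other genes, whose median over the libraries without metal was 15.1 CPM, against 0.514 CPM for the members, and the part of this gap in the shares was not tested. With TMM scaling, which corrects for composition, 59 of 69 members had N2 or N0 highest, against 30.8% of the other genes.

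Genes that missed the ratio showed the same order. A further 165 genes reached 4 times but not 8 times the highest other library plus 0.1. For 137 of them (83.0%) that highest library was N2 or N0, against 44.2% of the 29740 genes at 5 CPM or more. For 87 (52.7%) both libraries without metal exceeded all 5 other metal libraries, against 11.1% of the 29740 genes. These 165 were picked from the same 8 libraries by the same rule with a looser ratio, so they are no separate support. The threshold thus cuts through a gradient. The members just inside 8 times, on 6BL and 4BL, had 8.02 and 8.22 times, and the genes just outside, on 2BL and 7BS, had 7.99 and 7.96 times, with N2 the highest other library in all. At the CPM threshold, the lowest members had 5.25 CPM each, on 3B and 7AS, and the nearest genes below had 4.88 CPM on 7BS and 4.83 CPM on 6AL.

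**Figure D3:**
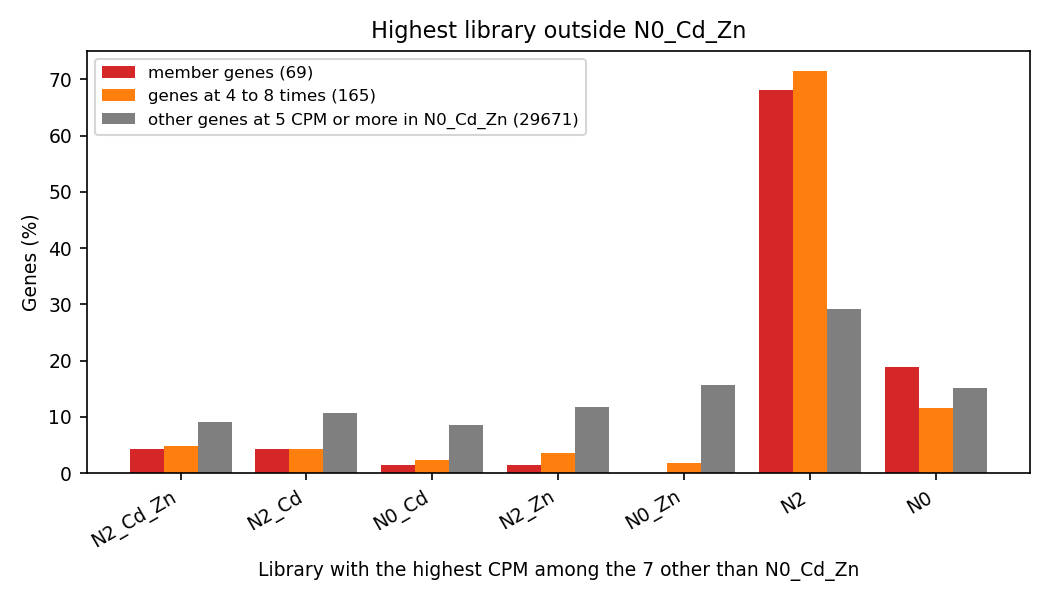
Share of genes (%) for which each library was the highest among the 7 other than N0_Cd_Zn, for the 69 members (red), the 165 genes at 4 to 8 times (orange) and the 29671 other genes at 5 CPM or more in N0_Cd_Zn (grey). N2 leads for 68.1% of members, 71.5% of genes at 4 to 8 times and 29.1% of the other genes.

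Matched comparisons that leave N0_Cd_Zn out gave the metal libraries below their control. These comparisons share N2 or N0, so their values are given side by side and not as repeats of each other. In N2_Cd_Zn 61 of 69 members were below their level in N2, 7 were above and 1 had no read in either. In N2_Cd 61 members were below N2 and 4 above, and in N2_Zn 61 were below and 7 above. In N0_Cd 54 members were below N0 and 6 above, and in N0_Zn 58 were below and 1 above. For the other genes at 5 CPM or more in N0_Cd_Zn, the share below the control was 60.7%, 66.4%, 65.8%, 51.8% and 63.3% in the same 5 comparisons.

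The same comparisons were described at 2-fold among genes with 1 CPM or more in 1 of the 2 libraries. In N2_Cd_Zn against N2, 28 members reached that level and 26 were 2-fold or more lower, with a median log2 ratio of -4.08, against 16.9% of 55212 genes. In N2_Cd against N2, 26 of 29 were lower (background 15.5%), and in N2_Zn against N2, 26 of 29 (background 15.3%). In N0_Cd against N0, 15 of 18 were lower (background 11.3%), and in N0_Zn against N0, 16 of 18 (background 17.2%). Most members reach 1 CPM through the library without metal, so these counts had to lean to the lower side and carry no support of their own. In N2_Zn against N2 1 member was 2-fold or more higher (background 7.72%), and 0 members were in N2_Cd_Zn against N2 (10.1%), N2_Cd against N2 (11.0%), N0_Cd against N0 (14.8%) and N0_Zn against N0 (7.21%).

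Between libraries that both had metal, few members were high enough to compare. In N2_Cd_Zn against N2_Cd, 1 of 5 members was 2-fold or more lower (background 13.6%) and 2 were higher (11.5%). In N2_Cd_Zn against N2_Zn, 3 of 7 were lower (background 8.56%) and 2 higher (9.90%). In N2_Cd against N0_Cd, 2 of 5 were lower (background 11.2%) and 2 higher (13.2%). In N2_Zn against N0_Zn, 1 of 6 was lower (background 15.4%) and 5 were higher (27.7%), and with TMM scaling 2 of 7 were lower (19.5% of all genes compared) and 4 higher (23.9%).

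Raised supply without metal went with higher levels of most members. N2 exceeded N0 for 52 of 69 members, N0 exceeded N2 for 14, and 3 had no read in either. Among the other genes at 5 CPM or more in N0_Cd_Zn, N2 exceeded N0 for 60.3%. Of 30 members at 1 CPM or more in N2 or N0, 16 were 2-fold or more higher in N2 (background 23.6%) and 1 was lower (background 10.4%). More members reached 1 CPM in N2 (28) than in N0 (18), so this count leaned to N2 and carries no support of its own. TMM scaling lowered the median log2 ratio of N2 to N0 over all genes compared to 0.03, against 0.29 without it, and then N2 exceeded N0 for 48 members and for 47.0% of the other genes. Of 28 members compared with TMM scaling, 13 were 2-fold or more higher in N2 (17.3% of all genes compared) and 1 was lower (14.5%).

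With N2 and N0 both set aside, 670 genes had at least 5 CPM in N0_Cd_Zn and at least 8 times the highest of the other 5 metal libraries plus 0.1. These were the 69 members and 601 genes that N2 or N0 kept out, as the rule fixes. The share of the 29740 genes at 8 times or more over a single library was 4.27% for N2_Cd_Zn, 4.49% for N2_Cd, 4.09% for N0_Cd, 4.32% for N2_Zn, 9.28% for N0_Zn, 0.935% for N2 and 2.12% for N0. All members meet each of these by the rule.

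The member with the most reads was TRIAE_CS42_4AL_TGACv1_288314_AA0944510, on the long arm of chromosome 4A, with a length of 1752 bp. It had 17528 counts in N0_Cd_Zn, 43 in N2_Cd_Zn, 4 in N2_Cd, 14 in N0_Cd, 47 in N2_Zn, 26 in N0_Zn, 1169 in N2 and 1610 in N0. N0_Cd_Zn is highest, the libraries without metal follow, and the other metal libraries lie far below both. N0_Cd_Zn was 12.2-fold above N0 (exact 95% counting interval 11.6 to 12.9) and 379-fold above N2_Cd_Zn (281 to 524). It was also the member highest per length, at 465 FPKM in N0_Cd_Zn.

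A second 4AL gene, on scaffold 288766, repeated this order at a lower level per length, 236 FPKM in N0_Cd_Zn. It had 11737 counts in N0_Cd_Zn, 17 in N2_Cd_Zn, 0 in N2_Cd, 0 in N0_Cd, 25 in N2_Zn, 4 in N0_Zn, 667 in N2 and 124 in N0. Against N2 it was 20.4-fold higher in N0_Cd_Zn (18.9 to 22.1) and against N2_Cd_Zn 642-fold (401 to 1102). In N2 and N0 these genes differed in order, since the first was higher in N0 and this one in N2. It was singled out after its values were seen.

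A smaller set of members was close to silent in all other libraries. The highest ratio belonged to TRIAE_CS42_4BS_TGACv1_329042_AA1097330, on the short arm of chromosome 4B and 875 bp long. It had 1101 counts in N0_Cd_Zn, 2 in N2_Cd_Zn and 2 in N2_Zn, and 0 in N2_Cd, N0_Cd, N0_Zn, N2 and N0. Its level in N0_Cd_Zn was at least 412-fold that in N0 and at least 425-fold that in N2, set against a floor of 3 counts in each library. Unlike most members, it had no read without metal.

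Members of this kind were found after their values were seen. Of the 69, 8 had a ratio of 50 or more and 3 of 100 or more. A ratio of 50 does not mark near-silence, since the 8 include Novel06326, with between 3 and 32 reads in each other library. A 7BL gene on scaffold 579038 had 790 counts in N0_Cd_Zn, 5 in N2_Cd_Zn, 2 in N2_Zn and 0 in the others. A 6BL gene on scaffold 499732 had 672 counts in N0_Cd_Zn, 1 in N2_Cd_Zn, 4 in N2_Zn, 1 in N0 and 0 in the others. These genes and the 4BS gene lacked reads in N2_Cd, N0_Cd, N0_Zn and N2 alike. A 2BS gene on scaffold 147057, with 114 counts in N0_Cd_Zn, was the member without a read in any other library.

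For 8 members the highest of the other 7 libraries was one with metal: N2_Cd_Zn for 3, N2_Cd for 3, N0_Cd for 1 and N2_Zn for 1. They include the 4BS, 7BL and 6BL genes above, whose counts elsewhere were at most 5. Some of the others were read in every library. The longest member, a 2AL gene of 4674 bp, had 1793 counts in N0_Cd_Zn, 80 in N2_Cd_Zn, 41 in N2_Cd, 115 in N0_Cd, 9 in N2_Zn, 59 in N0_Zn, 94 in N2 and 73 in N0. A locus without an arm code, Novel06326, had 1717 counts in N0_Cd_Zn, 28 in N2_Cd_Zn, 29 in N2_Cd, 10 in N0_Cd, 3 in N2_Zn, 11 in N0_Zn, 32 in N2 and 31 in N0. In neither gene did the libraries without metal stand apart from those with metal.

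Members came from both subgenomes and from 25 of the 41 chromosome or arm codes in the table, with at most 5 on any one. An A code was carried by 25 members (36.2%) and a B code by 36 (52.2%), against 41.2% and 41.8% of all genes at 5 CPM or more in N0_Cd_Zn. A D code was carried by 3 members (4.35%), against 2.43% of those genes. The code U, which names no chromosome arm, was carried by 3 members (4.35%), against 3.58% of those genes. Loci with a serial number and no position made up 2 members (2.90%), against 11.0% of those genes. By homoeologous group, the matching chromosomes of the subgenomes, group 2 held 16 members (23.2%, against 13.6%) and group 7 held 12 (17.4%, against 11.7%). Group 1 held 4 (5.80%, against 11.5%). These shares rest on few genes and were not tested.

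**Figure D4:**
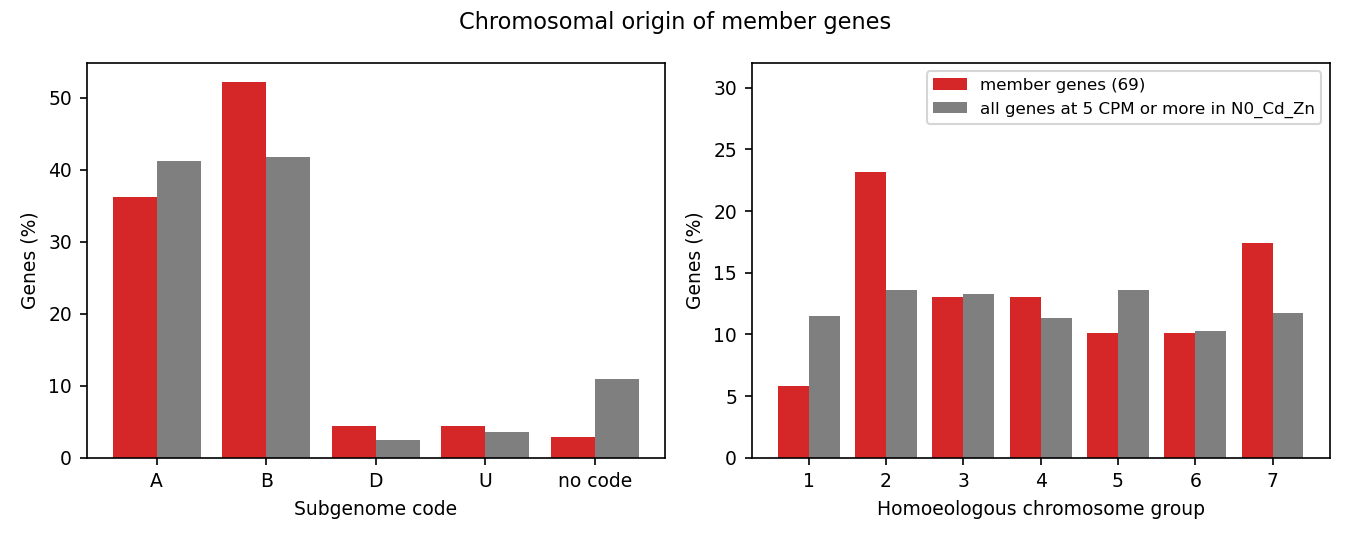
Share of the 69 member genes (red) and of all genes at 5 CPM or more in N0_Cd_Zn (grey), in %, by subgenome code (left) and by homoeologous chromosome group (right). Members with a B code make up 52.2% against 41.8%, and group 2 holds 23.2% against 13.6%.

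Members were shorter than other genes at that level. Their median length was 1503 bp, within a range from 467 to 4674 bp, against a median of 1944 bp over the 29740 genes. The CPM threshold is not set per length. The 67 members with a scaffold number lay on 64 scaffolds, and 3 scaffolds held a pair of members each, so that 6 members (8.70%) shared a scaffold. Of the 29671 other genes at 5 CPM or more in N0_Cd_Zn, 41 (0.138%) lay on a scaffold that holds a member.

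On 4BL scaffold 320707, the last gene by number had 2220 counts in N0_Cd_Zn, 6 in N2_Cd_Zn, 0 in N2_Cd, 0 in N0_Cd, 3 in N2_Zn, 17 in N0_Zn, 97 in N2 and 113 in N0. The first gene had 362 counts in N0_Cd_Zn, 1 in N2_Cd_Zn, 2 in N2_Zn, 28 in N2, 1 in N0 and 0 in the others. These members differed in the libraries without metal, since the last gene was higher in N0 than in N2 and the first had a single read in N0. Of the genes between them, the second had 125 counts in N0_Cd_Zn, between 2 and 24 in each other library and a ratio of 5.53, and the third had 1 count in N0_Cd_Zn and none elsewhere.

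The other pairs were neighbours by gene number. On 2BS scaffold 146993, the last genes had 593 and 281 counts in N0_Cd_Zn, 2 and 0 in N2_Cd_Zn, 0 and 1 in N2_Zn, 55 and 9 in N2, and 0 and 2 in N0, with 0 in N2_Cd, N0_Cd and N0_Zn. The 3 nearest other genes with over 10 reads on that scaffold did not share this profile. Their ratios were 0.788, 1.02 and 0.110. On 3B scaffold 222929, both genes in the table were members, with 224 and 211 counts in N0_Cd_Zn, 9 and 12 in N2 and 5 and 8 in N0, and at most 2 in any other library.

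By the median, neighbours were not high in N0_Cd_Zn, but a larger share than over all genes had a ratio of 2 or more. The 64 scaffolds held 127 other genes, of which 92 had a read in N0_Cd_Zn and 41 had 5 CPM or more there. Those 41 had a median ratio of 0.770, against 0.774 over all 29740 genes, and 4 (9.76%) had a ratio of 2 or more, against 3.46% of all. The 29740 genes include the members and the 41 do not. The difference in shares rests on few genes and was not tested.

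**Figure D5:**
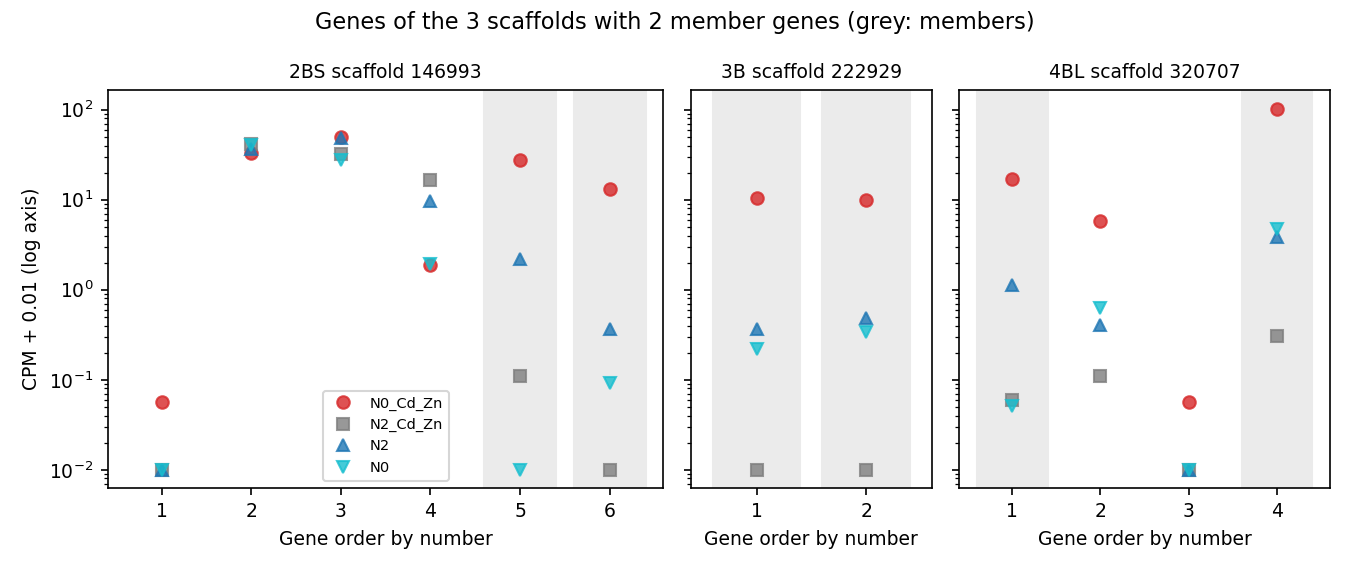
CPM + 0.01 (log axis) of every gene on the 3 scaffolds with 2 members, in order of gene number, in N0_Cd_Zn (circles), N2_Cd_Zn (squares), N2 (upward triangles) and N0 (downward triangles); members have a grey background and a count of 0 lies at 0.01. In the 6 members N0_Cd_Zn stands above the other 3 libraries shown, while genes 2, 3 and 4 of the 2BS scaffold have ratios of 0.788, 1.02 and 0.110.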

How the data were processed

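Root RNA was sequenced after 1 week of treatment. Libraries were made with an Illumina TruSeq kit per the labels' protocols, whereas the design text of the series speaks of SMRT sequencing. TopHat2 2.0.12 and Bowtie2 2.0.6 appear in the submitters' processing notes. The sources used here do not give how reads were counted, whether strand was used, or which build and annotation served. The deposited counts are whole reads per gene, 1 column per treatment, and whether 3 replicates were pooled into it is not given. The authors' deposited FPKM values equal counts divided by gene length and column total (largest relative deviation of the recovered length 2.3e-14), and gave the lengths. Columns were matched by name, and 0 were left out.

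CPM used column totals. The rule for members is in the opening, with a limit of 300 genes that was not reached. Library pairs were set against each other as log2 ratios of CPM with a prior count of 2, and exact binomial (Clopper-Pearson) 95% intervals cover counting error only. No statistical test was run, since there is 1 library per treatment and the rule reads all of them. The code for the rule was tested on simulated data. Identifiers printed are the member with the highest CPM, that with the highest ratio, the scaffolds with the most members, and others marked as chosen later. The members and lists were chosen with earlier results of these data known. The 12 gene lists set by product words were not applied, because the files do not pair identifiers with products. Alternatives covered TMM (edgeR 4.0.16), size factors (DESeq2 1.42.0), FPKM, thresholds and left-out libraries. Python 3.11.15, pandas 2.3.3 and R 4.3.3 were used.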

Additional observations from a re-analysis of the deposited data

Results flagged for a closer look

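With both metals at raised supply, 61 of the 69 members were lower in N2_Cd_Zn than in N2, 7 were higher and 1 had no read in either. Of the other genes at 5 CPM or more in N0_Cd_Zn, 60.7% were lower. At basal supply all 69 were higher in N0_Cd_Zn than in N0, which the choice of genes fixes, so the opposite directions are no finding about the supply levels. The rule capped the levels in N2_Cd_Zn and N2 but did not set which of them was higher. The difference between the supply levels was not tested.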

How the results depend on the processing

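The number of members, 69 as reported, stayed within 1.5 times under 10 of 17 settings, among them TMM (74), size factors (75) and the rule on FPKM (51). It moved to 234 at 4 times, 32 at 16 times, 113 at 1 CPM, 26 at 20 CPM, 28 with 1 CPM added, 283 leaving out N2 and the limit of 300 leaving out N2 and N0, a setting chosen after seeing the data. Leaving out any single library but N2 gave 69 to 84, and such a setting can only add genes. Lifting the limit of 300 could not change the number, since that limit was not reached. The share with N2 or N0 next highest, 87.0%, moved to 75.0% at 16 times and 76.1% at 1 CPM. It rose to 96.8% leaving out N2 and 98.3% leaving out N2 and N0, as the rule fixes. The genes added there were those that N2 or N0 had kept out. The share on a common scaffold, 8.70%, moved to 2.99% at 4 times, 0 at 20 CPM, 2.12% leaving out N2 and 2.67% leaving out both. The share with a B code stayed within its 95% interval of 39.8% to 64.4% in all 17 settings. The median length stayed within its interval of 1304 to 1869 bp. The settings share genes with the 69 members and the intervals treat members as independent, so this says little about stability. Beyond the rule and its looser or stricter limits, the causes were not tested.

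With no minimum but 1 read, more members could be compared. Those 2-fold or more lower were 53 of 68 for N2_Cd_Zn (17.7% of all genes compared), 52 of 65 for N2_Cd (16.3%) and 53 of 68 for N2_Zn (16.9%) against N2, and 39 of 60 for N0_Cd (12.6%) and 41 of 59 for N0_Zn (18.2%) against N0. They were 12 of 45 (15.9%) and 15 of 48 (10.5%) for N2_Cd_Zn against N2_Cd and N2_Zn, 5 of 66 for N2 against N0 (9.59%), 5 of 33 for N2_Cd against N0_Cd (10.7%) and 6 of 46 for N2_Zn against N0_Zn (13.6%). Members 2-fold or more lower on log2(FPKM + 1) were also counted, keeping the 1 CPM minimum. Against N2, 21 or 22 of 28 or 29 were lower for each metal library. Against N0, 7 of 18 (N0_Cd) and 10 of 18 (N0_Zn) were lower. For N2_Cd_Zn, 0 of 5 were lower against N2_Cd and 1 of 7 against N2_Zn. Lower members were 0 of 30 for N2 against N0, 1 of 5 for N2_Cd against N0_Cd and 0 of 6 for N2_Zn against N0_Zn. No shares over all genes are given here, so these counts carry no support. Those for metal against no metal lean lower by the 1 CPM minimum. With TMM on CPM, 2 of 7 were lower for N2_Zn against N0_Zn (19.5% of all genes compared). A count of 0 limits what can be said of members in the metal libraries to 0.119 to 0.150 CPM. No paired analysis was possible, since each treatment has 1 library. An additive fit over the crossed treatments was not run here, since the rule reads all 8 libraries.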
